A study of Mus musculus with 6 samples.

Results

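The 10 genes described here make bile acids from cholesterol, join them to amino acids, or sense the hormone that slows their synthesis. They were chosen by name: Cyp7a1, Hsd3b7, Cyp8b1, Akr1d1, Cyp27a1, Cyp7b1, Slc27a5, Baat, Fgfr4 and Klb. Each had 1 row, so 10 of the table's 16331 rows are described in full. Expression was measured in primary hepatocytes of male C57Bl6 mice, on 3 arrays of cells exposed to 10 µM cyclosporin A (CsA) and 3 arrays of cells exposed to 0.5% DMSO, the vehicle. Both groups were exposed for 48 hours between collagen layers, in serum-free medium with insulin, glucagon and hydrocortisone, and no genetic change is given for either. Per the labels the replicates are 3 separate experiments on cells of 3 animals, and whether the CsA medium also held DMSO is not given. CsA is an immunosuppressant that inhibits calcineurin through cyclophilins and is known to impair bile flow.

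The liver makes bile acids by a pair of routes. In the classical route CYP7A1 hydroxylates cholesterol at the start and sets the pace, HSD3B7 and AKR1D1 alter the sterol rings, CYP8B1 adds the hydroxyl group that makes cholic acid, and CYP27A1 oxidises the side chain. In the alternative route CYP27A1 acts first and CYP7B1 next. The side chain is shortened in peroxisomes, and BAAT joins the coenzyme A form of the acid to taurine or glycine. SLC27A5 makes that form from free bile acids. The gut hormone FGF15 reaches hepatocytes through the receptor FGFR4 with its co-receptor beta-klotho (Klb) and represses Cyp7a1.

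With CsA, Baat and Slc27a5 of conjugation, Cyp27a1 and Cyp7b1 of the alternative route, Akr1d1 of the classical route and the receptor gene Fgfr4 fell, by 1.47-fold to 14.9-fold. By limma with Benjamini-Hochberg adjustment over all rows, 6 of the 10 genes changed at an adjusted p under 0.05, against 18.6% of all rows. All 6 were lower (9.05% of all rows) and 0 were higher (9.55% of all rows). At an unadjusted p under 0.05, 7 were lower, Cyp7a1 included, and 0 higher. With the replicate number as a block in limma, 7 were lower (12.9% of all rows) and 0 higher (15.8% of all rows). The other 4, Cyp7a1, Hsd3b7, Cyp8b1 and Klb, did not pass. The median difference, CsA minus DMSO, was -0.87 on the log2 scale over the 10 genes and 0.035 over all rows. All values below are log2 RMA expression on that scale, where a difference of 1 is a doubling, and a value can be compared between arrays for 1 gene but not between genes.

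**Figure D1:**
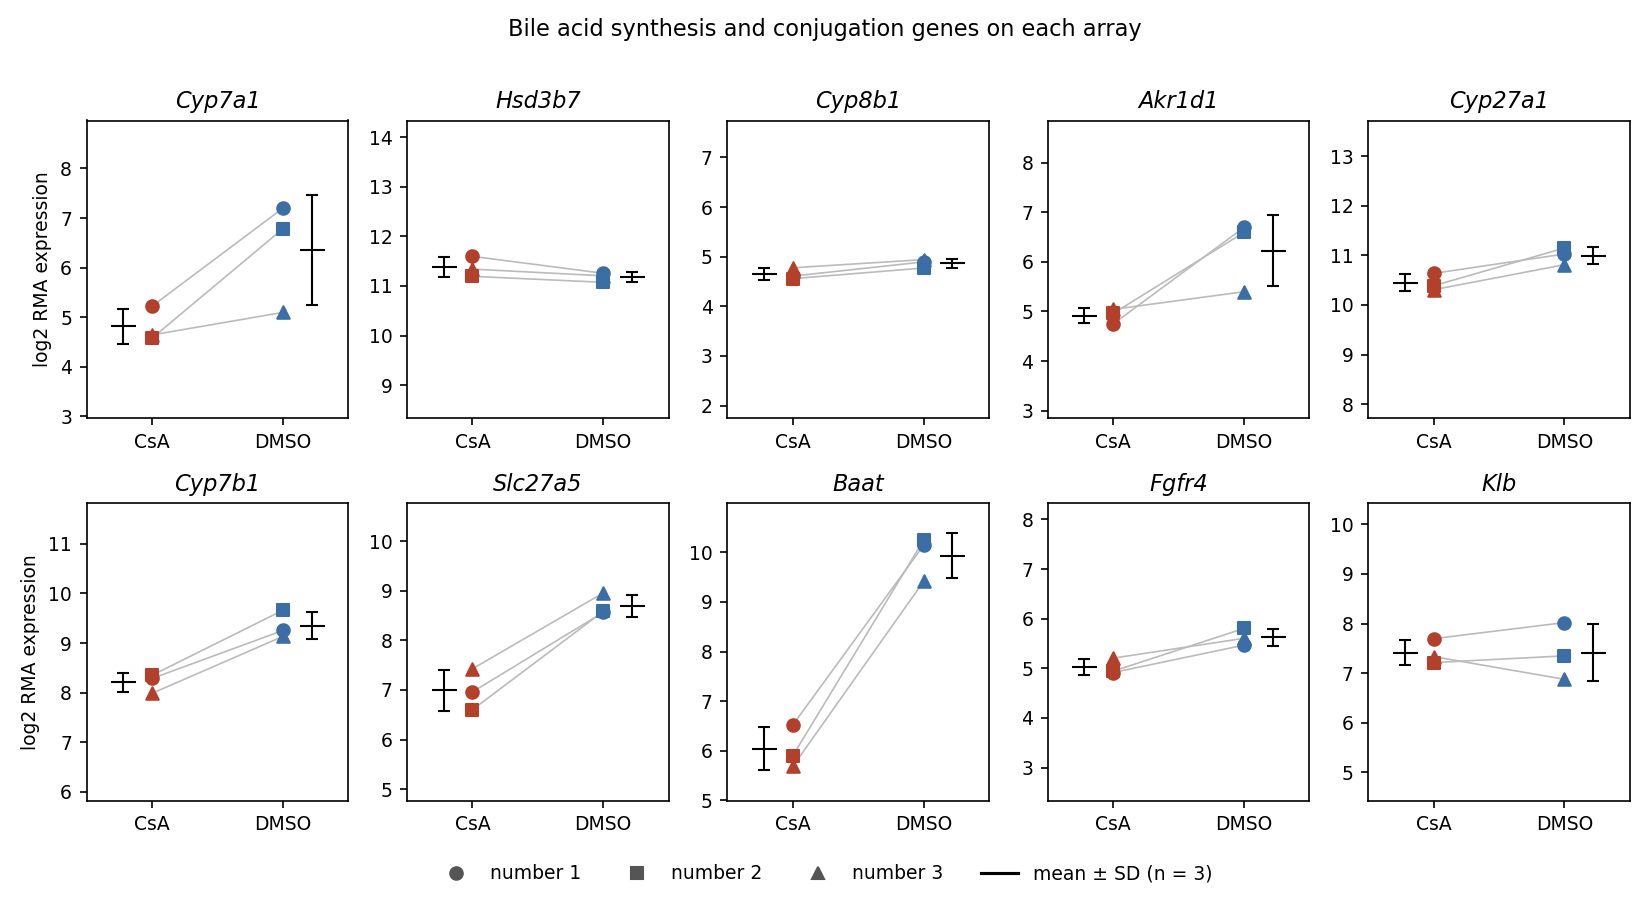
Log2 RMA expression (vertical axes, each spanning the same range of log2 units) of the 10 genes on each array, CsA left and DMSO right. Symbols mark the replicate number, grey lines join arrays of the same number, and bars give the mean ± SD (n = 3 per group). The groups do not overlap for Akr1d1, Cyp27a1, Cyp7b1, Slc27a5, Baat and Fgfr4.

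The labelled cell type was checked against its markers, as far as levels of different probe sets, which cannot be ranked, allow. Albumin was at 15.19 in CsA and 15.29 in DMSO on average, on a scale whose highest value was 15.3. Of the 8 hepatocyte markers measured, 7 were lower with CsA (9.05% of all rows) and 0 higher (9.55% of all rows). Their mean level per array was 11.53 to 11.95 in CsA and 12.75 to 13.01 in DMSO. Their summed linear level was 78524 to 91863 in CsA and 117181 to 121521 in DMSO. Fewer hepatocytes and less of these RNAs per cell cannot be told apart in such samples, and the part of this shift in the results for bile acid genes was not tested. Of 31 measured markers of cholangiocytes, macrophages, stellate, endothelial and lymphoid cells, 4 were lower (Sox9, Vsig4, Acta2 and Stab2) and 0 higher. That count lies near the 9.05% of all rows that were lower, and is not read as a result about those cells. With the replicate block 5 of the 31 were lower, Krt19 included (-0.48, limma adjusted p = 0.0314), beside 12.9% of all rows. The highest DMSO mean among the 31 was 6.75. Array medians lay between 6.70 and 6.78. Both arrays numbered 3 stood apart on the second principal component (17.3% of the variance), at -23.38 for CsA and -21.63 for DMSO, against 6.59 to 16.26 for the other 4. The values that rest on them are given below.

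Of the classical route's 4 ring enzymes, Akr1d1 passed the test and Cyp7a1, Hsd3b7 and Cyp8b1 did not. Cyp7a1 was at 5.22, 4.58 and 4.64 on the CsA arrays numbered 1, 2 and 3, and at 7.20, 6.78 and 5.10 on the DMSO arrays. The first and second DMSO arrays were well above all CsA arrays, while DMSO replicate 3 lay below CsA replicate 1, so the groups overlapped. The difference was -1.54 ± 0.47 (log2 difference ± SE, 95% interval -2.61 to -0.48), with an adjusted p of 0.0518 in limma, which did not pass. At the dim CsA level RMA may understate the difference of Cyp7a1. With the replicate number as a block, Cyp7a1 was lower (limma adjusted p = 0.00876, SE 0.30). Without DMSO replicate 3 the difference was -2.17 (limma adjusted p = 0.00086), and without both arrays numbered 3 it was -2.09 (limma adjusted p = 0.00203). Leaving out any 1 of the other 5 arrays gave adjusted p-values up to 0.167.

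Akr1d1, which encodes the reductase that sets the bent shape of the bile acid ring system, fell 2.48-fold. It was at 4.75, 4.96 and 5.04 in CsA, against 6.69, 6.59 and 5.40 in DMSO. The groups did not overlap, as for 35.1% of all rows (15.3% with every CsA array lower and 19.8% with every CsA array higher), and DMSO replicate 3 was again the lowest DMSO array, 0.35 above the highest CsA array. The difference was -1.31 ± 0.30 (limma adjusted p = 0.0182), and at the dim CsA level RMA may understate the fold. Its call was lost when DMSO array 1 or 2 was left out (limma adjusted p = 0.0563 and 0.0735), and when CsA array 1 or 2 was (0.0632 and 0.0563).

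Hsd3b7, the dehydrogenase and isomerase that acts on 7-alpha-hydroxylated sterols of both routes, was at 11.60, 11.19 and 11.34 in CsA, against 11.26, 11.07 and 11.21 in DMSO. The groups overlapped, and the difference was 0.20 ± 0.13 (95% interval -0.10 to 0.49, limma adjusted p = 0.355). That interval holds no fall larger than 0.10 on the log2 scale. Cyp8b1, the sterol 12-alpha-hydroxylase, was at 4.61, 4.56 and 4.78 in CsA, against 4.90, 4.77 and 4.94 in DMSO. CsA was the lower array within each replicate number, but the groups overlapped, since CsA replicate 3 stood at the level of DMSO replicate 2. The difference was -0.22 ± 0.11 (95% interval -0.47 to 0.03, limma adjusted p = 0.216). Cyp8b1 was dim on all 6 arrays, where RMA compresses differences, and no detection call was used.

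The P450 genes of side-chain oxidation and of the alternative route both fell. Cyp27a1, the mitochondrial sterol 27-hydroxylase used by both routes, was at 10.64, 10.39 and 10.31 in CsA, against 11.03, 11.15 and 10.81 in DMSO. Every CsA array was below every DMSO array, with a gap of 0.17, and the gene fell 1.47-fold (-0.55 ± 0.13, limma adjusted p = 0.0221). The call was lost when DMSO array 1 or 2 was left out (limma adjusted p = 0.0704 and 0.0907), and when CsA array 2 or 3 was (0.0859 and 0.0508). Cyp7b1, the oxysterol 7-alpha-hydroxylase that follows CYP27A1, was at 8.29, 8.35 and 7.99 in CsA, against 9.25, 9.66 and 9.13 in DMSO. The arrays within each group lay close together and the gap between groups was 0.78, so the 2.21-fold fall (-1.14 ± 0.16, limma adjusted p = 0.00189) exceeded the spread. It passed with any 1 of the 6 arrays left out, at differences of -1.25 to -0.99.

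Promoter sequences of 6 of the 10 genes were found in RefSeq's table for the mouse build GRCm38.p6. They were searched, over 250 bases before the gene's start and on both strands, for AGGTCA, the half-site of many nuclear receptors, and its extended form AAGGTCA, bound by receptors such as LRH-1, which overlaps the first. AAAGTCC, the core of a motif of HNF4A, and GTTAAT, a half-site of HNF1, were searched likewise. Of all 32851 promoters, 14.0% held AGGTCA, 4.08% AAGGTCA, 3.58% AAAGTCC and 6.43% GTTAAT. Among the 6 genes AGGTCA was found in Akr1d1 alone, on the reverse strand in 2 places, and AAAGTCC in Cyp8b1 alone, 66 to 60 bases before the start. Hsd3b7, Cyp27a1, Fgfr4 and Klb held none of these letters in this window. The promoters of 3 genes follow, with matches in capitals: Akr1d1, which fell and holds a match (chr6:37529923-37530172 on the plus strand), Cyp27a1, which fell and holds none (chr1:74713285-74713534 on the plus strand), and Cyp8b1, which did not pass and holds a match (chr9:121916306-121916555 on the minus strand).
Akr1d1: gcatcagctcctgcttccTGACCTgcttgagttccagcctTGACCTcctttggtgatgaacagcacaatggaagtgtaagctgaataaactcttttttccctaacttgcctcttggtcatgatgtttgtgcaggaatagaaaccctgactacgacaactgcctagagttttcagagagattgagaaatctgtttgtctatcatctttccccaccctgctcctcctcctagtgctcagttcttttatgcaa
Cyp27a1: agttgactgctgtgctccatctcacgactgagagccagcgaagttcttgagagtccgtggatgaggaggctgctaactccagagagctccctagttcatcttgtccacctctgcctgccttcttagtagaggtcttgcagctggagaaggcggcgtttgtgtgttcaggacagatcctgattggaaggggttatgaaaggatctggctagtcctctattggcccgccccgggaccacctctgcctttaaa
Cyp8b1: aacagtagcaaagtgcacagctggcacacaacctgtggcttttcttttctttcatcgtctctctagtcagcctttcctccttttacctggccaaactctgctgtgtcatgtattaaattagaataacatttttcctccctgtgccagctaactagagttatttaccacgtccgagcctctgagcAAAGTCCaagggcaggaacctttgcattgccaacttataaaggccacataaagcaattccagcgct
A match is a description of the letters only, and binding was not measured.

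Both conjugation genes fell, and Baat fell furthest of the 10. Slc27a5, the bile acid CoA ligase, was at 6.96, 6.60 and 7.43 in CsA, against 8.56, 8.58 and 8.96 in DMSO. All CsA arrays were at least 1.14 below the lowest DMSO array, and the gene fell 3.26-fold (-1.70 ± 0.21, limma adjusted p = 0.000892). In contrast to Cyp7a1 and Akr1d1, the DMSO array numbered 3 was the highest of its group. Baat was at 6.52, 5.90 and 5.69 in CsA, against 10.14, 10.24 and 9.41 in DMSO. The gap between groups was 2.89, wider than the range within either group, and the fall was 14.9-fold (-3.90 ± 0.26, 95% interval -4.50 to -3.30, limma adjusted p = 6.21e-05). Of all 16331 rows, 6 had a lower difference than Baat. Slc27a5 and Baat passed with any 1 of the 6 arrays left out, at differences of -1.92 to -1.51 and -4.16 to -3.72.

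**Figure D2:**
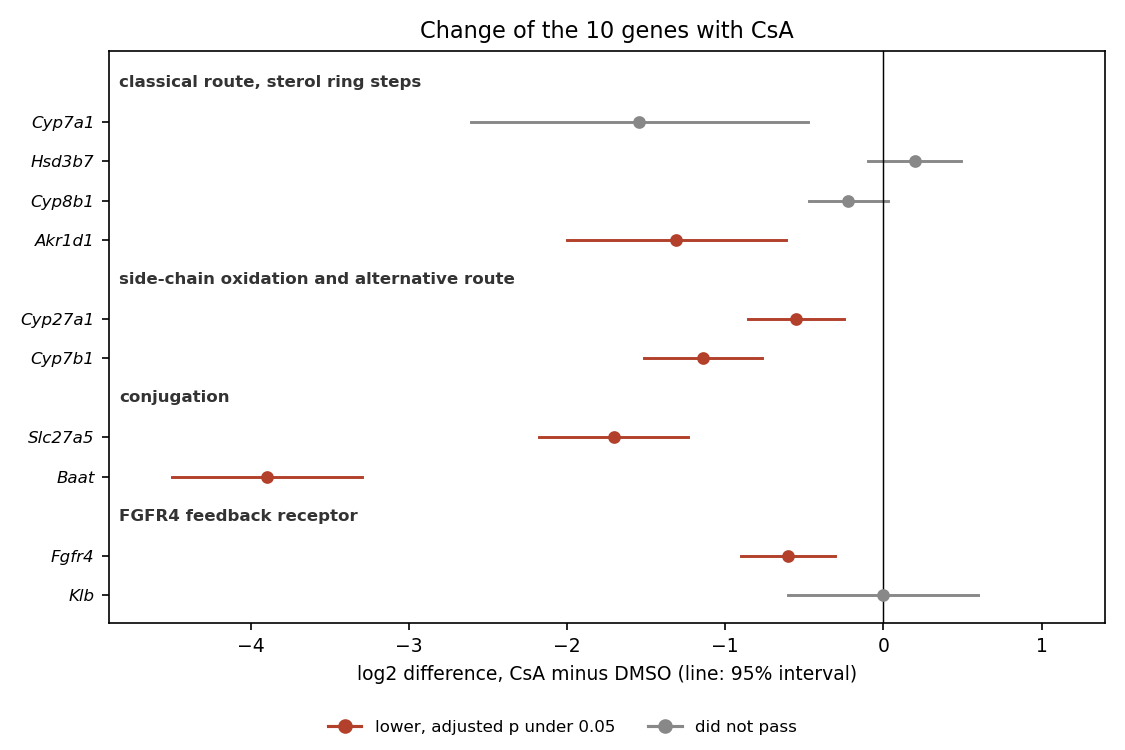
Log2 difference, CsA minus DMSO (horizontal axis), of each gene with its 95% interval from limma (lines), grouped by role from top to bottom. Red marks genes lower at an adjusted p under 0.05 and grey those that did not pass. Baat lies furthest left at -3.90, and the interval of Cyp7a1, -2.61 to -0.48, is the widest.

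The receptor and co-receptor of the FGF feedback loop differed in their calls. Fgfr4, the receptor tyrosine kinase, was at 4.91, 4.94 and 5.20 in CsA, against 5.47, 5.80 and 5.60 in DMSO. The groups did not overlap, with a gap of 0.26, and the gene fell 1.52-fold (-0.60 ± 0.13, limma adjusted p = 0.0138). Fgfr4 was dim on all 6 arrays, where RMA may understate the fold. The call was lost when DMSO array 2 (limma adjusted p = 0.0619), CsA array 1 (0.0549) or CsA array 2 (0.0632) was left out. Klb was at 7.70, 7.21 and 7.33 in CsA, against 8.02, 7.35 and 6.88 in DMSO. The CsA values lay inside the DMSO range, and the difference of -0.0008 ± 0.26 had a 95% interval of -0.60 to 0.60 (limma adjusted p = 0.999). Within arrays of the same number, Klb differed by -0.32 and -0.14 for numbers 1 and 2 and by 0.46 for number 3.

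**Figure D3:**
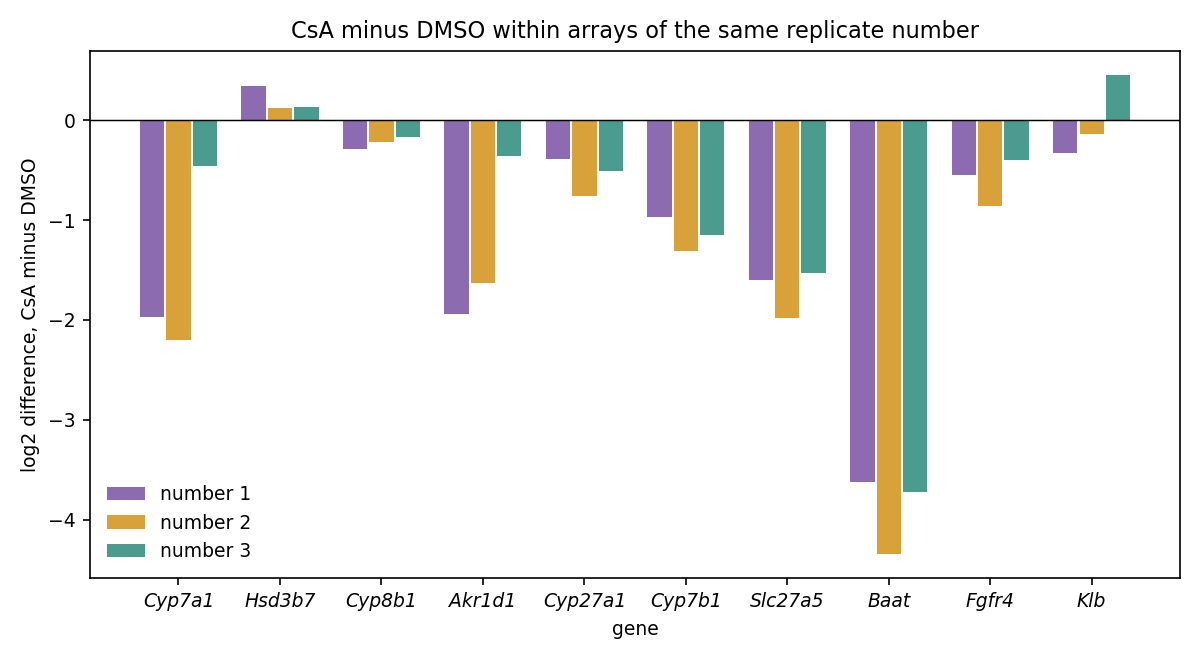
Log2 difference, CsA minus DMSO (vertical axis), between the arrays of the same replicate number for each gene (horizontal axis), with 1 bar for each of the 3 numbers. The bars of number 3 are short for Cyp7a1 (-0.45) and Akr1d1 (-0.35) and point up for Klb (0.46), while the 3 bars of Baat lie between -4.34 and -3.62.

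CsA arrays were lower than DMSO arrays of the same number for 9 of the 10 genes in numbers 1 and 2 and for 8 in number 3. The share of all rows lower within each number was not computed. The genes were read on the same arrays, so these counts describe them and are no separate support. Cyp7a1 differed by -1.97 and -2.20 in numbers 1 and 2 but by -0.45 in number 3. Akr1d1 differed likewise by -1.94, -1.63 and -0.35. For these genes it was the DMSO array numbered 3 that was low. Baat differed by -3.62, -4.34 and -3.73, Slc27a5 by -1.60, -1.98 and -1.53, and Cyp7b1 by -0.97, -1.31 and -1.15, with number 3 within 0.1 of the range of the other pairs.

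Whether steps changed by different amounts was tested on 5 pairs of genes, as the log2 difference between the genes within each array. An exact two-sided permutation test of 3 against 3 arrays cannot give a p below 0.1. Slc27a5 minus Baat was 0.44, 0.70 and 1.74 in CsA, against -1.58, -1.66 and -0.46 in DMSO. The groups did not overlap, and Baat fell by 2.19 ± 0.56 (SE) more on the log2 scale than Slc27a5 (exact permutation p = 0.1, the smallest possible, adjusted p = 0.375 over the 5 pairs). Relative to Cyp7a1, the change was 1.32 ± 0.71 higher for Cyp8b1 (exact permutation p = 0.2), 0.99 ± 0.57 higher for Cyp27a1 (0.3) and 0.40 ± 0.61 higher for Cyp7b1 (0.6). The change of Klb was 0.60 ± 0.44 higher than that of Fgfr4 (exact permutation p = 0.3). Adjusted p-values of these 4 were 0.375, 0.375, 0.6 and 0.375, and the groups overlapped in each. Cyp8b1 and Fgfr4 were dim on all arrays, where RMA compresses differences, so their changes within these pairs may be understated. With 3 arrays a group no result could pass 0.05, so whether the classical and alternative routes changed unequally is undecided here. Within arrays of the same number, where a sign-flip test cannot go below an exact p of 0.25, Slc27a5 minus Baat differed between CsA and DMSO by 2.02, 2.36 and 2.20. Cyp8b1 minus Cyp7a1 differed by 1.69, 1.99 and 0.29, and Klb minus Fgfr4 by 0.23, 0.73 and 0.86, so these 3 pairs kept 1 sign in all numbers. The sign turned in number 3 for Cyp27a1 minus Cyp7a1 (1.58, 1.44 and -0.05) and for Cyp7b1 minus Cyp7a1 (1.01, 0.89 and -0.69). Relative to Cyp7a1, the change of Cyp27a1 was 0.59 without DMSO replicate 1 and 1.53 without DMSO replicate 3. That of Cyp7b1 was -0.064 and 0.93, and that of Cyp8b1 0.92 and 1.99, for the same arrays left out. The change of Klb relative to Fgfr4 was 0.98 without DMSO replicate 1 and 0.34 without DMSO replicate 3. The Cyp7b1 value was also 0.21 without CsA replicate 2.

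Other genes of bile acid metabolism, together with related enzymes and regulators, were read from a list of 51, of which 47 were measured. Of these 26 fell, 1 rose and 20 were not called, with a median difference of -0.76. Of all rows, 9.05% were lower and 9.55% higher, with a median of 0.035. These shares also stand beside the counts for each group of the list below. The list was chosen with earlier results of these data known, so its counts are no separate support. Among 7 genes listed for the peroxisomal side-chain steps, 6 were lower and Acot8, a thioesterase, differed by 0.03 ± 0.17. Acox2, the oxidase specific to branched side chains, fell 2.84-fold (-1.50 ± 0.20, limma adjusted p = 0.00142). The racemase Amacr (-1.10), the bifunctional enzyme gene Hsd17b4 (-0.96), the transporter Abcd3 (-1.02) and the acyl-CoA synthetase Slc27a2 (-2.20) fell too. The sixth, Akr1c6 (-0.63), encodes a steroid reductase rather than a peroxisomal enzyme.

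Of 4 other sterol hydroxylases, Cyp2c70, which makes the muricholic acids of mice, fell 3.78-fold (-1.92 ± 0.21, limma adjusted p = 0.00049), and Cyp39a1, an oxysterol 7-alpha-hydroxylase, fell 3.21-fold (-1.68 ± 0.40, limma adjusted p = 0.021). Cyp39a1 did not pass without DMSO replicate 2 (-1.38, adjusted p = 0.0778). Cyp46a1 and Ch25h, which hydroxylate the cholesterol side chain at other positions, differed by -0.05 each without passing. Their DMSO means exceeded those of 23.6% and 26.3% of rows, dim levels at which RMA compresses differences. All 3 measured genes of related acyltransferases and thioesterases were lower. Acnat2, a close relative of Baat, fell 9.18-fold (-3.20 ± 0.25, limma adjusted p = 0.000121) to 4.32 in CsA, a dim level at which a fold may be understated. Also lower were the glycine acyltransferase gene Glyat (3.51-fold) and the thioesterase gene Acot12 (2.67-fold). These 3 were listed as relatives, and whether their products act on bile acids was not tested.

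**Figure D4:**
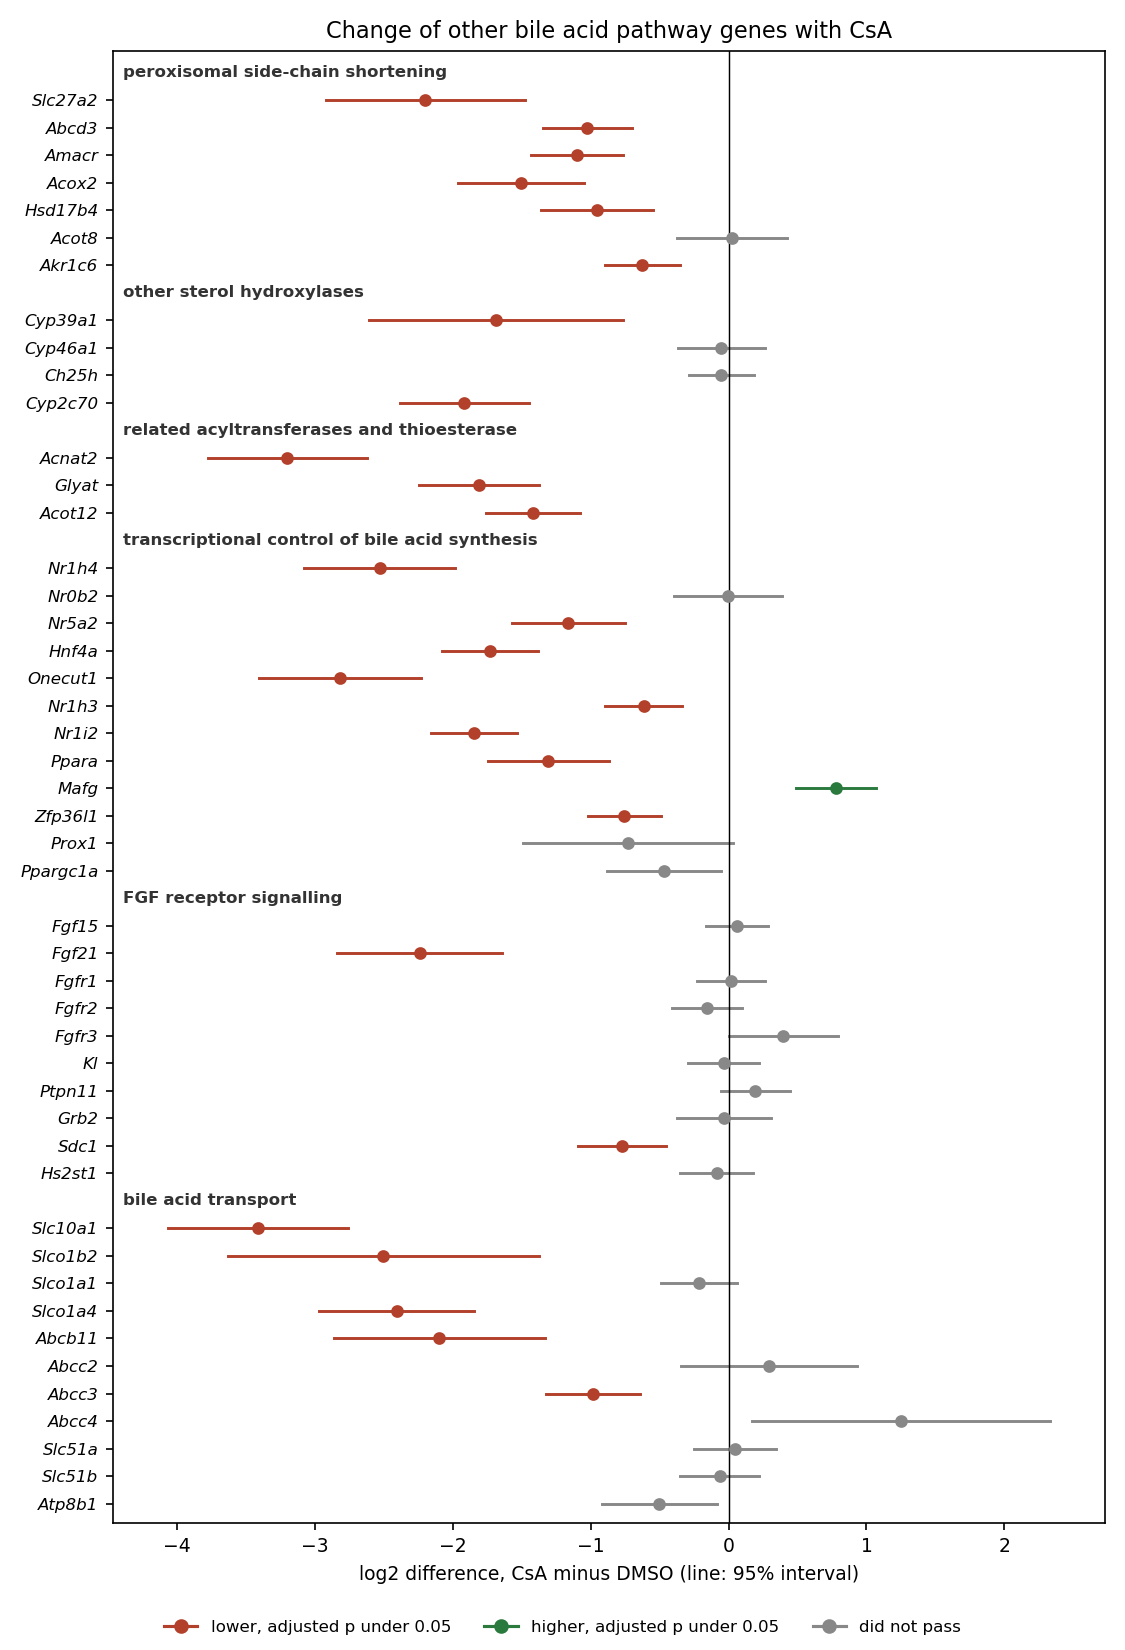
Log2 difference, CsA minus DMSO (horizontal axis), of 47 other listed genes of bile acid metabolism and related enzymes and regulators, grouped by role. Lines give 95% intervals from limma. Red marks genes lower and green those higher at an adjusted p under 0.05, and grey those that did not pass. Mafg, at 0.78, is the 1 gene called higher.

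Among 12 transcriptional regulators of bile acid synthesis 8 fell, Mafg rose and 3 did not pass. Nr1h4, the bile acid receptor FXR, was at 7.93, 7.32 and 7.22 in CsA, against 10.12, 10.38 and 9.57 in DMSO (-2.53 ± 0.24, limma adjusted p = 0.000274). Hnf4a and Nr5a2 (LRH-1), activators of Cyp7a1 and Cyp8b1, fell 3.31-fold and 2.24-fold. Nr0b2 (SHP), the repressor that FXR induces, was at 5.73, 5.34 and 5.95 in CsA, against 5.64, 5.49 and 5.90 in DMSO, a difference of -0.0034 ± 0.17 (limma adjusted p = 0.994). The DMSO mean of Nr0b2 exceeded that of 36.9% of rows, a dim level at which RMA compresses differences. Mafg, another FXR-induced repressor of bile acid genes, was at 10.43, 10.64 and 10.79 in CsA, against 9.90, 9.70 and 9.92 in DMSO. It rose 1.72-fold (0.78 ± 0.13, limma adjusted p = 0.00364). Zfp36l1, which promotes decay of Cyp7a1 mRNA, fell 1.69-fold. Prox1 (-0.73) and Ppargc1a (-0.47) did not pass in limma (adjusted p = 0.177 and 0.115) and were lower with the replicate block (adjusted p = 0.00152 and 0.0134) and without DMSO replicate 3 (adjusted p = 0.0283 and 0.036).

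Of 10 genes for FGF receptor signalling, 2 fell, 0 rose and 8 were not called in limma, beside 9.05% of all rows lower and 9.55% higher. Fgf21, a hepatic hormone that signals through Klb, was at 6.40, 5.74 and 6.03 in CsA, against 8.90, 7.96 and 8.01 in DMSO, a 4.72-fold fall (-2.24 ± 0.26, limma adjusted p = 0.000781). The proteoglycan gene Sdc1 fell 1.71-fold. Fgf15, made in the gut, averaged 4.82 in CsA and 4.76 in DMSO and did not pass (limma adjusted p = 0.755). Fgfr1, Fgfr2, the klotho gene Kl, the adaptor Grb2 and the phosphatase gene Ptpn11 had differences of -0.16 to 0.19 and did not pass. Fgf15, Fgfr1, Fgfr2 and Kl were dim in both groups, where RMA compresses differences, and no detection call was used. Fgfr3 differed by 0.40 (limma adjusted p = 0.16) and was higher with the replicate block (adjusted p = 0.0308).

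In bile acid transport 5 of 11 genes were lower and 0 higher in limma, beside 9.05% and 9.55% of all rows. They were the uptake transporters Slc10a1 (-3.41), Slco1b2 (-2.50) and Slco1a4 (-2.40), and 2 exporters. The exporters were Abcb11 (-2.10, limma adjusted p = 0.00336) and Abcc3 (-0.98, limma adjusted p = 0.00267). Slc10a1 and Slco1b2 averaged 5.03 and 5.23 in CsA, dim levels at which a fold may be understated. Within numbers 1, 2 and 3, Slco1b2 differed by -3.40, -2.24 and -1.86, and Abcb11 by -3.04, -2.14 and -1.11. Abcc4, a basolateral exporter, was at 11.62, 10.86 and 11.04 in CsA, against 11.20, 9.15 and 9.43 in DMSO. CsA was higher within each number, by 0.42, 1.71 and 1.61, while the groups overlapped through DMSO replicate 1. The difference of 1.25 ± 0.47 did not pass (limma adjusted p = 0.107). It was called higher with the replicate block (adjusted p = 0.0076) and without DMSO replicate 1 (1.89, adjusted p = 0.00156). Atp8b1, a phospholipid flippase of the canalicular membrane, differed by -0.50 (limma adjusted p = 0.0948). It was lower with the replicate block (adjusted p = 0.0171) and without DMSO replicate 3 (-0.71, adjusted p = 0.0101). Abcc2, which exports conjugates, differed by 0.295 (limma adjusted p = 0.557) and was called higher without DMSO replicate 1 (0.66, adjusted p = 0.0282).

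The named genes whose profiles lay nearest to those of Cyp7a1 and Baat were found by the root mean square distance over the 6 arrays, each profile centred on its DMSO mean. Nearest to Cyp7a1 were A1cf (0.29 log2 units), an RNA-binding cofactor of apolipoprotein B mRNA editing, Bex1 (0.30) and Dmd (0.32), which encodes dystrophin. A1cf was at 5.40, 4.81 and 5.34 in CsA, against 7.23, 6.80 and 5.80 in DMSO, with the same low DMSO replicate 3. Nearest to Baat were the scramblase family gene Plscr2 (0.20), Leap2 (0.24), which encodes a liver-secreted peptide, and the carboxylesterase gene Ces1d (0.25). Leap2 was at 8.28, 7.64 and 7.74 in CsA, against 11.79, 11.66 and 11.01 in DMSO.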

How the data were processed

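The authors deposited log2 expression values, 1 per probe set, and the submitters' processing notes name RMA and R 2.11.0 for them. The labels' protocols give biotin as the label of the cRNA and Affymetrix for its preparation. RMA forces like distributions on all arrays, so a change in the total RNA of a cell is lost, and it compresses differences of dim probe sets. The array type was not given in the sources used here. Symbols came from the platform's gene table (15136 of 16331 rows with 1 symbol), and RefSeq's table for GRCm38.p6 changed 0 of them.

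The CsA arrays were compared with the DMSO arrays in limma 3.58.1 (R 4.3.3) by a linear model per row (lmFit, eBayes) with a two-sided test, no covariate and no filter. P-values were adjusted by the Benjamini-Hochberg method over all rows, with a threshold of 0.05. The fit was tested on simulated data. Folds are the log2 difference's size turned back to a linear ratio. Precision was limited by 3 arrays per group. The 10 genes, the lists and the alternatives were chosen with earlier results of these data known. Genes named are the 10, any of the pathway list, and for Cyp7a1 and Baat the 3 other named genes with the nearest profile. Marker genes singled out were named after their values were seen.

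Same-numbered arrays had deviations from their group means that correlated at 0.398, 0.242 and 0.499 across rows, all over 0.1, so the numbers were taken as pairing. CsA array 1 with DMSO array 2 reached 0.221, also over 0.1, against 0.04 for CsA array 2 with DMSO array 1. The remaining unmatched values lay between -0.496 and -0.203. Numbers 1 and 2 were thus poorly separated from each other, while number 3 stood apart, and the blocked calls rest on this pairing. A shared animal behind each number is an inference, since the CsA titles share 1 prefix and the DMSO titles do not. The blocked value is given where it changes a call.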

Additional observations from a re-analysis of the deposited data

How the results depend on the processing

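The 10 differences were recomputed under 16 alternatives (15 for the 4 genes that leaving out the dimmest 50% of rows removed), which gave 156 values. The 4 removed genes were Cyp7a1, Cyp8b1, Akr1d1 and Fgfr4. Direction and side of the threshold were kept in 131 of the 156 values. Hsd3b7, Cyp8b1, Cyp7b1, Slc27a5 and Baat kept both in every alternative run. With the replicate block Cyp7a1 joined the lower genes (7 of 10), and no other of the 10 changed its call. Cyp7a1 was also called lower with array weights (-1.92, adjusted p = 0.00175), without the dimmest 20% of rows (adjusted p = 0.0471) and with a trended prior (adjusted p = 0.0498). The count of lower genes was 3 at an adjusted p under 0.01, 4 of the 6 genes left without the dimmest 50% of rows, and 3 to 7 with 1 array left out, with 3 without DMSO replicate 2 or CsA replicate 2. The difference of Klb, never called, turned positive at 0.028 after repeated quantile normalization and at 0.051 after centring. It was -0.27 to 0.30 with 1 array left out, and positive without the DMSO array 1 (0.30), the CsA array 2 (0.10) or the CsA array 3 (0.04). With 1 array left out, the change relative to Cyp7a1 was 0.92 to 1.99 for Cyp8b1, 0.59 to 1.53 for Cyp27a1 and -0.064 to 0.93 for Cyp7b1, and that of Klb relative to Fgfr4 was 0.34 to 0.98. Pathway genes called higher numbered 3 with the replicate block, 2 with array weights and 1 to 3 with 1 array left out (3 without DMSO replicate 1), and those called lower 25 to 29. Over all rows 1478 were lower and 1559 higher. The counts were 2263 and 2927 with array weights, 882 and 627 at an adjusted p under 0.01, 974 to 1834 and 764 to 2327 with 1 array or both arrays numbered 3 left out, and 2582 higher with the replicate block. The cause of these shifts was not tested.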
